A study of Mus musculus with 6 samples.

Results

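The genes described here are 57 components of the mitotic machinery, which build the kinetochore, run the spindle checkpoint, condense chromosomes and divide the cell. They were chosen by name. Each was read from the probe set annotated to that gene alone or, where there were several, from the one with the highest mean over the 6 arrays. All 57 had such a probe set, among 18193 genes that did, and 55 were tested among 10531 genes tested. The test took in every gene with readings of log2 4 or more on 3 or more arrays, and dimmer ones were left out. The study compared mouse neural stem cells positive for a Spot14 GFP reporter with cells negative for it, with 3 biological replicates, 1 array each, on either side. Spot14, the product of Thrsp, is known as a thyroid hormone responsive regulator of lipid synthesis, and the series title sets the comparison within lipogenesis and neural stem cell activity. Total RNA was hybridised to Affymetrix expression arrays. All 6 samples carry the same cell type label. The strain and age of the mice, the promoter that drives GFP, the source of the cells and the way in which they were separated were not stated in the sources used here.

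The kinetochore is the protein assembly by which a chromosome attaches to the spindle. Its inner layer rests on nucleosomes with the histone variant CENP-A, and its outer layer holds the microtubules. Until every chromosome is attached, checkpoint proteins hold back Cdc20, the activator of the anaphase-promoting complex, while Aurora and Polo-like kinases drive spindle assembly and correct faulty attachments. Most of these genes are transcribed in G2 phase and mitosis, so they are widely read as marks of dividing cells, and adult neural stem cells are known to spend long periods out of the cycle.

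The arrays had median log2 values of 3.55 to 3.66, and their number limits the precision. Some markers of the labelled cell type were bright on all arrays: Sox2, a stem cell transcription factor, averaged 12.40 ± 0.22 in GFP positive and 11.83 ± 0.39 in GFP negative cells, and Vim, a filament of radial glia, averaged 15.22 ± 0.01 and 15.15 ± 0.06 (SD, n = 3 each). Of 10 markers listed for neural stem cells and radial glia, 9 were tested, 1 rose (Nr2e1, 0.86) and 0 fell. Of the 9, 7 lay higher in GFP positive cells and 2 lower (Nes, −0.49, and Fabp7, −0.01), with a median of 0.55. Hopx had the largest difference, 1.69 (limma adjusted p = 0.106), and read 3.27 on GFP negative replicate 2. Prom1 was under log2 4 on all 6 arrays. Of 8 microglia markers 1 was tested, and of 8 endothelial and pericyte markers 2 were. Thrsp itself read 14.32, 14.20 and 14.13 in GFP positive cells, against 13.58, 13.41 and 13.71 in GFP negative cells. All 3 GFP positive readings were higher, but the difference of 0.65 (SE 0.17) missed the threshold (limma adjusted p = 0.0893). GFP negative replicate 3 stood apart. Correlations between arrays, taken over genes that are no independent replicates, were 0.985 to 0.993 within the GFP positive group and 0.952 to 0.982 within the GFP negative group.

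In GFP positive cells, genes of the mitotic machinery read lower in each of the 8 roles. Of the 55 tested, 34 fell and 0 rose at a limma adjusted p under 0.05, whereas 2.11% of all 10531 genes tested fell, 2.35% rose and 4.46% passed in either direction. At an unadjusted p under 0.05, limma counted 50 lower and 1 higher among them, beside 8.28% lower among all genes. Their median difference was −1.64 on the log2 scale, or 3.11-fold lower, and that of all genes tested was 0.00. In bulk RNA, fewer dividing cells and less of these transcripts per cell cannot be told apart. The groups did not overlap, with GFP positive arrays below, for 50 of the 55, against 11.5% of all genes; counted in either direction it was 51, against 25.3%. A gap of more than 1 on the log2 scale lay between them for 22, against 0.969% of all genes. A difference of 2-fold or more downward was measured for 43, against 3.53% of all genes, and 19 were among the 100 genes with the most negative differences. The members were picked with earlier results known, so these shares describe them and add no support. Moreover 5 of the 55 were under log2 4 on all 3 GFP positive arrays (Nsl1, Plk1, Nek2, Pimreg and Ska1). They entered the test only through the GFP negative group and had to differ, so their groups could not overlap. All 5 are among the 50 without overlap and among the 43. Nsl1, Plk1, Nek2 and Pimreg are also among the 22 and among the 19. The counts above include them, and only the falls and the median are given without them. Of the other 50, 30 fell, with a median of −1.61. Without them 5 of 8 fell in the outer kinetochore, 5 of 8 among the Aurora and Polo-like kinases and partners, and 1 of 2 in the last group described, and the other roles are untouched. The plot of differences by role shows that 53 of the 55 lay below 0, against 49.5% of all genes.

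**Figure D1:**
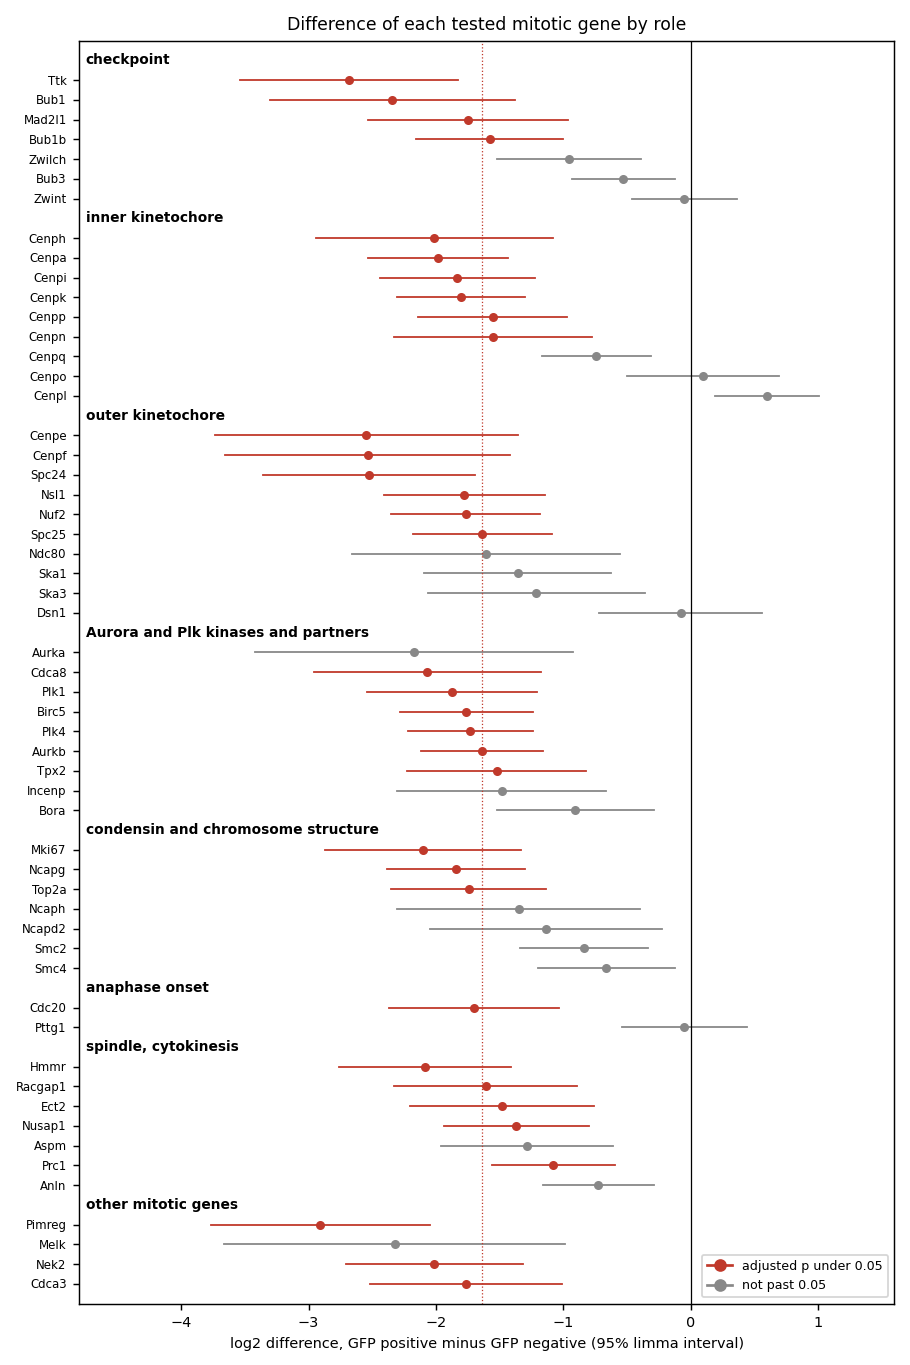
Each row is a tested gene, grouped by role; the point is the log2 difference, GFP positive minus GFP negative, and the bar its 95% limma interval (3 arrays per group), red where the limma adjusted p was under 0.05. The dotted line is the median of all 55, −1.64; Zwint, Pttg1 and Dsn1 lie near 0, and Cenpo and Cenpl lie above it.

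The number of calls rested on single arrays, among all genes as among these. Leaving out GFP positive replicate 1, 2 or 3 gave 0, 19 and 0 falls, against 0%, 0.627% and 0% of all genes. Leaving out GFP negative replicate 1, 2 or 3 gave 27, 6 and 40, against 1.86%, 0.342% and 4.21% of all genes. None of the calls named below held without GFP positive replicate 1 or without replicate 3 of that group, where limma still counted 49 and 47 lower at an unadjusted p under 0.05, against 6.67% and 5.02% of all genes. The lowest adjusted p among the genes was then 0.0625 and 0.0621. The median difference stayed between −1.79 and −1.51 over the arrays left out in turn. Other measures were compared. Gapdh signal at the 3′ end over that at the 5′ end, as a log2 ratio, was 1.23 to 1.32 for the GFP positive group and 1.14 to 2.33 for the GFP negative group. GFP negative replicate 1 had the lowest of all 6, and GFP negative replicates 2 (2.33) and 3 (1.65) lay above every GFP positive array. For beta-actin the ratio was 1.77 to 2.03 for the GFP positive group and 1.87 to 2.65 for the GFP negative group. With the mean of the Gapdh and beta-actin ratios as a covariate, 0 of the 55 passed, and 0 of all genes tested fell. In that fit limma counted 47 lower at an unadjusted p under 0.05, against 5.35% of all genes. The median of the 55 was then −1.56. The 18S ribosomal RNA control read 12.82 to 13.03 for the GFP positive group and 13.39 to 14.12 for the GFP negative group, and its part in the result was not tested. Astrocyte markers moved the opposite way. Of 12 listed, 11 were tested, 5 rose and 0 fell, and their summed linear signal was 67341 to 74241 for the GFP positive group and 39823 to 44416 for the GFP negative group, with Gjb6 under log2 4 in both groups. Single markers of other cell types lay lower with the mitotic genes. Elavl4, of neuroblasts, fell by 1.59 (limma adjusted p = 0.0474) as 1 of 4 tested of its list, with Neurod1 at −1.06 (0.0796). Acta2, of pericytes, fell by 1.29 (limma adjusted p = 0.0413) and averaged 3.96, under log2 4, in GFP positive cells. It was 1 of 2 tested of its list, and the other, Flt1, differed by 0.08. Cspg4, of the oligodendrocyte lineage, differed by −1.31 (limma adjusted p = 0.134) among 4 tested. The summed signal of the neuroblast list was 13514 to 14578 for the GFP positive group and 11911 to 16572 for the GFP negative group. Nearly all of it is Sox11, which averaged 13.76 in GFP positive and 13.78 in GFP negative cells (difference −0.02). Dlx2, of the same list, differed by 0.04. The summed signal of the oligodendrocyte list was 10718 to 12222 for the GFP positive group and 12162 to 14208 for the GFP negative group. The endothelial and pericyte list summed to 68.5 to 73.1 for the GFP positive group and 87.5 to 99.6 for the GFP negative group. The part of these marker lists in the result was not tested.

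**Figure D2:**
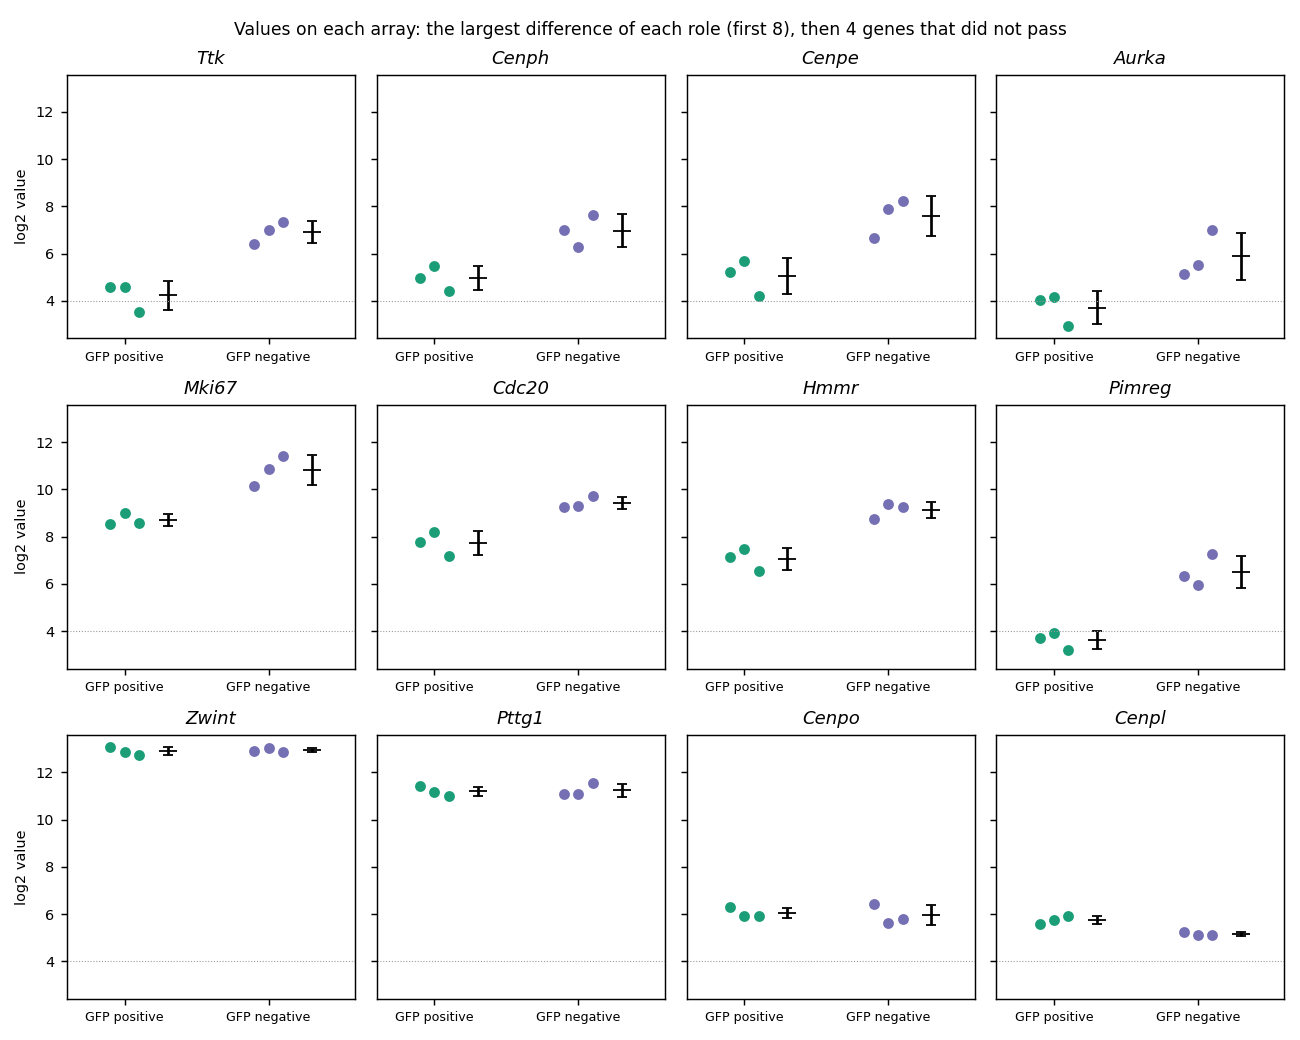
Points are log2 values on single arrays, GFP positive left and GFP negative right, with mean and SD (n = 3) beside them; the dotted line is log2 4. The first 8 panels show the gene with the largest difference of each role. They were picked by that difference, so the lack of overlap between their groups adds no support. Pimreg, which entered the test only through the GFP negative arrays, could not overlap. The last 4, like Aurka among the first, show genes that did not pass, of which Cenpl reads higher in GFP positive cells.

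The promoters of these genes are shown because the members moved together and because mitotic genes are known to share 2 promoter elements. These are the CCAAT box, bound by the factor NF-Y, and the cell cycle genes homology region (CHR), bound by the MuvB complexes that repress such genes in resting cells and activate them in G2 phase. RefSeq promoter windows of 300 bases, 250 before and 50 after the annotated start (GRCm38.p6), were matched for 47 of the 57 genes. The letters searched were CCAAT on either strand and, for the CHR, TTTGAA or TTCGAA on either strand; matches of the 2 motifs may share bases, TTCGAA reads the same on both strands and was counted once, and a gene with several windows counts if any holds the match. CCAAT was found for 33 of the 47 (70.2%), against 43.7% of the 8621 tested genes with a window. The CHR letters were found for 29 (61.7%), against 15.8%, and both for 26 (55.3%), against 6.5%. Among 67 other genes of the same machinery with a window, CCAAT was found for 52.2%, the CHR letters for 41.8% and both for 23.9%. The median difference of the 73 tested genes of those lists was −0.26. Of the 34 genes that fell, 29 had a window and 18 of these (62.1%) held both; of the 21 tested that did not pass, 16 had a window and 6 (37.5%) held both. Cenpl, which read higher in GFP positive cells, held both. Of the genes whose groups overlapped, Zwint held CCAAT only, and the windows of Pttg1, Dsn1 and Cenpo held neither. In the members' windows 68.3% of the CHR matches began in the last 100 bases, near the transcription start, against 23.0% in the windows of all tested genes. A match is a description of letters and not a test of binding. The windows of the 3 genes with both motifs and the largest falls are printed 5′ to 3′ on the strand of the gene, with CCAAT and CHR letters of either strand in capitals. They lie at chr9:83834439-83834738 on the plus strand (Ttk), chr1:189688037-189688336 on the minus strand (Cenpf) and chr2:127831810-127832109 on the minus strand (Bub1).
Ttk: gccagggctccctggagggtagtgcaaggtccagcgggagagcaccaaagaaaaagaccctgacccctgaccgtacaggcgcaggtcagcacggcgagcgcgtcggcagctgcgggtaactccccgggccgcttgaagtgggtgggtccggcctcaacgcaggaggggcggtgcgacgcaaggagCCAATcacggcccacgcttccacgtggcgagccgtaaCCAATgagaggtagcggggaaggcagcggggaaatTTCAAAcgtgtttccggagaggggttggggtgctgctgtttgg
Cenpf: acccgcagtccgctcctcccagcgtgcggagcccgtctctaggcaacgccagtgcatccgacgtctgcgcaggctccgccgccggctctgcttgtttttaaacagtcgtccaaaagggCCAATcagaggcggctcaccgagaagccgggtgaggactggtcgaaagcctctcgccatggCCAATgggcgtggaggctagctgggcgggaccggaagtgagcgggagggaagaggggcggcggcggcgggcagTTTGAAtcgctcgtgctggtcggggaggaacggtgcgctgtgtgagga
Bub1: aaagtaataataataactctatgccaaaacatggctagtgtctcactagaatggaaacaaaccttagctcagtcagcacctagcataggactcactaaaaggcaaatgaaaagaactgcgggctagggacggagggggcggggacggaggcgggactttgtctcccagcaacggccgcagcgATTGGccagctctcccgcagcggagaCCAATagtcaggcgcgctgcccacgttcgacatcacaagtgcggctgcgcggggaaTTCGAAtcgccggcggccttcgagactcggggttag
In all 3 windows the CHR letters lie downstream of 2 CCAAT matches. Counted from 1 at the 5′ end of the window, they begin at base 258 in Ttk, 253 in Cenpf and 265 in Bub1, within the 50 bases after the annotated start. The CCAAT letters begin at bases 186 and 223 in Ttk, 119 and 180 in Cenpf, and 183 and 209 in Bub1.

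Of the 7 checkpoint genes, 4 fell, with a median difference of −1.58 for the 7. Ttk, the kinase that starts checkpoint signalling at unattached kinetochores, had the largest fall. It read 4.58, 4.61 and 3.53 in GFP positive and 6.41, 7.02 and 7.33 in GFP negative cells. The groups lay 1.79 apart at their nearest arrays, and Ttk fell by 2.68 (SE 0.37, limma adjusted p = 0.0147). Bub1, the kinase that marks centromeric chromatin for shugoshin, read 5.57, 6.35 and 4.74 in GFP positive and 7.50, 8.26 and 7.92 in GFP negative cells. It fell by 2.34 (SE 0.41, limma adjusted p = 0.0269), or 5.07-fold, and varied more among the GFP positive arrays (SD 0.81) than among the GFP negative arrays (SD 0.38). Mad2l1 and Bub1b, whose proteins Mad2 and BubR1 bind and restrain Cdc20, fell as well (differences −1.75 and −1.58). Bub3, the adaptor that carries Bub1 and BubR1 to the kinetochore, differed by −0.53 (limma adjusted p = 0.157), and Zwilch, a subunit of the RZZ complex that brings in Mad2, by −0.95 (0.0775); neither passed, although their groups did not overlap. Zwilch passed without GFP negative replicate 3 (0.0379). Zwint, a kinetochore partner of Zw10 that is also known from rat brain as a binding partner of Snap25, read 13.08, 12.84 and 12.74 in GFP positive and 12.89, 13.04 and 12.88 in GFP negative cells. These values overlapped throughout (difference −0.05, 95% interval −0.46 to 0.36). The count of checkpoint genes that fell was 3 without GFP positive replicate 2, and 3, 0 and 5 without GFP negative replicate 1, 2 or 3. Where it was 0, 6 were lower at an unadjusted p under 0.05, against 7.01% of all genes.

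Of 9 tested inner kinetochore genes, 6 fell and 0 rose, with a median of −1.55. Cenpa, the centromeric histone H3 variant itself, read 6.81, 7.20 and 6.55 in GFP positive and 8.80, 8.59 and 9.10 in GFP negative cells. Its level was 3.95-fold lower, a difference of −1.98 (SE 0.23, limma adjusted p = 0.0113). The spread within each group (SD 0.32 and 0.26) was small beside that difference. Cenph, a subunit of the constitutive centromere network, read 4.99, 5.48 and 4.44 in GFP positive and 7.01, 6.28 and 7.65 in GFP negative cells, and fell by 2.01 (SE 0.40, limma adjusted p = 0.0374). Its partners Cenpi and Cenpk (differences −1.83 and −1.80) fell, as did Cenpp, of the CENP-O group (−1.55), and Cenpn, which recognises CENP-A nucleosomes (−1.55). Cenpq, of the same group as Cenpp, differed by −0.74 and did not pass (limma adjusted p = 0.0717), or passed without GFP negative replicate 3 (0.0481). Cenpo, the namesake of that group, read 6.29, 5.91 and 5.93 in GFP positive and 6.43, 5.62 and 5.81 in GFP negative cells. Its groups overlapped (difference 0.10, 95% interval −0.50 to 0.69), and the sign turned at another probe set (−0.30). Cenpl, the partner of Cenpn, was the only tested member to lie wholly higher, at 5.59, 5.77 and 5.93 in GFP positive and 5.24, 5.12 and 5.12 in GFP negative cells. Its difference of 0.60 did not pass (limma adjusted p = 0.113) except with array weights (0.029). Cenpm was not tested: it read 2.82, 2.85 and 2.62 in GFP positive cells and 3.74, 3.39 and 5.92 in GFP negative cells, above log2 4 only in GFP negative replicate 3. The count of falls was 3 without GFP positive replicate 2, and 3, 2 and 6 without GFP negative replicate 1, 2 or 3. Of the calls, those of Cenpa and Cenpk held in 4 of the 6 fits with an array left out, and that of Cenpn in 0.

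The outer kinetochore had 10 tested genes, of which 6 fell, with a median of −1.70. Cenpe, the kinesin motor that carries chromosomes to the spindle equator, read 5.21, 5.71 and 4.21 in GFP positive and 6.65, 7.88 and 8.24 in GFP negative cells. Cenpf, a large protein of the outer layer that binds microtubules, read 5.03, 6.04 and 4.23 in GFP positive and 7.03, 7.80 and 8.08 in GFP negative cells. In both genes GFP positive replicate 3 was lowest and GFP negative replicate 3 highest, and the differences of −2.55 and −2.54 had wide intervals (−3.73 to −1.36, and −3.65 to −1.42; limma adjusted p = 0.0383 and 0.0321). The 4 subunits of the Ndc80 complex, the main microtubule coupler, all lay lower. Spc24 fell by 2.53 and read under log2 4 on average in GFP positive cells (3.92 ± 0.18 against 6.45 ± 0.73 in GFP negative cells), so its size depends on the background estimate. Nuf2 and Spc25 fell (differences −1.77 and −1.64), and Ndc80 differed by −1.61 but did not pass (SE 0.45, limma adjusted p = 0.104), with GFP negative arrays at 5.63, 6.18 and 7.31. Of the Mis12 complex, which links the layers, Nsl1 averaged 3.56 ± 0.46 in GFP positive and 5.33 ± 0.25 in GFP negative cells, and entered the test only through the GFP negative arrays. Dsn1 read 6.87, 6.95 and 7.22 in GFP positive and 7.35, 7.41 and 6.52 in GFP negative cells (difference −0.08, 95% interval −0.72 to 0.56). Ska1 and Ska3, of the complex that strengthens the grip on microtubules, differed by −1.36 (limma adjusted p = 0.0593) and −1.21 (0.124); both passed without GFP negative replicate 3 (0.0299 and 0.0345). The count of falls was 4 without GFP positive replicate 2, and 6, 1 and 8 without GFP negative replicate 1, 2 or 3.

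Among the Aurora and Polo-like kinases and their partners, 6 of 9 fell, with a median of −1.73. All 9 lay lower without overlap between the groups, against 11.5% of all genes, but the filter left Plk1 no room to overlap. Without Plk1, 5 of 8 fell, with a median of −1.68. Aurka, the Aurora kinase of the spindle poles, had the largest difference, at 4.04, 4.18 and 2.93 in GFP positive and 5.13, 5.54 and 6.99 in GFP negative cells. GFP negative replicate 3 lay 1.66 above the mean of the other 2, and the difference of −2.17 (SE 0.53) did not pass with it (limma adjusted p = 0.0704) but did without it (−1.62, 0.0459). Aurkb, the catalytic subunit of the chromosomal passenger complex, fell by 1.64 (4.15 ± 0.07 in GFP positive and 5.78 ± 0.31 in GFP negative cells). Of its partners in that complex, Cdca8 (borealin) read 8.49, 8.83 and 7.70 in GFP positive and 9.86, 10.36 and 11.00 in GFP negative cells, and fell by 2.07 (SE 0.38, limma adjusted p = 0.0308). Birc5 (survivin) fell by 1.76 (8.78 ± 0.21 in GFP positive and 10.54 ± 0.32 in GFP negative cells), and Incenp, the scaffold, differed by −1.48 and did not pass (limma adjusted p = 0.0632; 0.0399 without GFP negative replicate 1). Plk1, the main mitotic Polo kinase, averaged 3.11 ± 0.37 in GFP positive and 4.99 ± 0.42 in GFP negative cells, and entered the test only through the GFP negative arrays. Plk4, the kinase of centriole duplication, was 3.31-fold lower and among the calls that held in 4 of the 6 fits with an array left out. Of the Aurora A activators, Tpx2 fell by 1.52, and Bora read 8.20, 8.41 and 8.49 in GFP positive and 9.14, 9.80 and 8.88 in GFP negative cells. The difference in Bora of −0.90 (95% interval −1.52 to −0.29) did not pass (limma adjusted p = 0.113), or did without GFP negative replicate 3 (0.0317). The count of falls was 3 without GFP positive replicate 2, and 6, 2 and 8 without GFP negative replicate 1, 2 or 3.

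Of 7 genes of condensin and chromosome structure, 3 fell, with a median of −1.35. Mki67, the antigen Ki-67 that coats mitotic chromosomes, read 8.54, 9.00 and 8.59 in GFP positive and 10.16, 10.87 and 11.41 in GFP negative cells. It was 4.29-fold lower (limma adjusted p = 0.0188), with the GFP negative arrays spread over more than 1 log2 unit. Top2a, the topoisomerase that untangles sister DNA, fell by 1.74. Condensin I, the ring that compacts chromosomes, is built of Smc2 and Smc4, which it shares with condensin II, and of subunits of its own. Of those, Ncapg read 7.87, 7.89 and 7.35 in GFP positive and 9.24, 9.67 and 9.73 in GFP negative cells and fell by 1.84 (SE 0.23, limma adjusted p = 0.012). Ncaph (−1.35, limma adjusted p = 0.126; 0.021 without GFP negative replicate 1) and Ncapd2 (−1.14, 0.171) did not pass. The shared subunits differed least. Smc4 read 8.75, 9.24 and 8.70 in GFP positive and 9.85, 9.35 and 9.47 in GFP negative cells, which left 0.11 between the nearest arrays (−0.66, 95% interval −1.20 to −0.13, limma adjusted p = 0.176). Smc2 differed by −0.84 (limma adjusted p = 0.0809; 0.0336 without GFP negative replicate 3). The count of falls was 1 without GFP positive replicate 2, and 4, 0 and 4 without GFP negative replicate 1, 2 or 3. Where it was 0, 6 were lower at an unadjusted p under 0.05, against 7.01% of all genes.

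The genes of anaphase onset behaved unevenly. Cdc20, the activator that the checkpoint restrains, read 7.79, 8.20 and 7.19 in GFP positive and 9.26, 9.30 and 9.71 in GFP negative cells. The difference was −1.70 (SE 0.29), or 3.25-fold lower (limma adjusted p = 0.0242), a call that was lost without GFP negative replicate 2 and where probe sets with a cross-hybridising suffix were left out (−2.04, limma adjusted p = 0.112). Pttg1, securin, the inhibitor of separase, read 11.41, 11.16 and 11.00 in GFP positive and 11.10, 11.08 and 11.54 in GFP negative cells, overlapping throughout (difference −0.05, 95% interval −0.54 to 0.45). Espl1, separase, the protease that opens cohesin, was not tested. It read 2.89, 3.04 and 3.03 in GFP positive and 3.54, 4.73 and 5.01 in GFP negative cells, which is above log2 4 on 2 GFP negative arrays and on no GFP positive array.

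Of 7 spindle and cytokinesis genes, 5 fell, with a median of −1.37. Hmmr, a microtubule-binding protein of the spindle, read 7.14, 7.46 and 6.55 in GFP positive and 8.76, 9.39 and 9.25 in GFP negative cells. The groups lay 1.30 apart at their nearest arrays (difference −2.08, SE 0.29, limma adjusted p = 0.0151). Racgap1, of the centralspindlin complex that positions the cleavage furrow, read 7.23, 8.03 and 6.92 in GFP positive and 8.77, 8.99 and 9.25 in GFP negative cells, and fell by 1.61 (SE 0.31, limma adjusted p = 0.0335). Ect2, which acts at the cleavage furrow, fell by 1.48. Nusap1, which bundles microtubules at chromosomes, and Prc1, which crosslinks the midzone, fell too (differences −1.37 and −1.08). Aspm, a protein of the spindle poles known from human microcephaly, differed by −1.28 and did not pass (limma adjusted p = 0.0546). Anln, the furrow scaffold anillin, had the smallest difference of the 7. It read 6.36, 6.38 and 6.68 in GFP positive and 7.14, 7.06 and 7.39 in GFP negative cells (−0.72, 95% interval −1.16 to −0.29, limma adjusted p = 0.0821). The count of falls was 2 without GFP positive replicate 2, and 1, 0 and 5 without GFP negative replicate 1, 2 or 3. All 7 were lower at an unadjusted p under 0.05 in each of these fits, against 5.85% to 11.4% of all genes.

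Of the remaining 4 genes 3 fell, and their median of −2.17 was the largest of the roles. Pimreg and Nek2, both among the falls, entered the test only through the GFP negative arrays and had to differ. Without them 1 of 2 fell, with a median of −2.04. Pimreg, a mitotic regulator of chromosome segregation, read 3.71, 3.93 and 3.19 in GFP positive and 6.33, 5.94 and 7.27 in GFP negative cells. All 3 GFP positive values were under log2 4, so it entered the test only through the GFP negative arrays and its fold is not given. Melk, a kinase of proliferating progenitors, read 4.76, 4.22 and 3.42 in GFP positive and 5.25, 6.72 and 7.41 in GFP negative cells. Its arrays spread so widely in the GFP negative group (SD 1.11) that a difference of −2.32 did not pass (limma adjusted p = 0.0717; 0.0285 without GFP negative replicate 1). Nek2, the kinase that parts the centrosomes, averaged 3.72 ± 0.23 in GFP positive and 5.73 ± 0.55 in GFP negative cells, and likewise entered only through the GFP negative arrays. Cdca3, a trigger of mitotic entry, read 6.45, 7.07 and 6.03 in GFP positive and 8.18, 7.93 and 8.73 in GFP negative cells, and fell by 1.76 (SE 0.32). Across the roles, 7 tested genes had a GFP positive mean under log2 4. The count of falls in this last group was 2 without GFP positive replicate 2, and 3, 1 and 3 without GFP negative replicate 1, 2 or 3.

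Other probe sets of the same genes, which the choice of the brightest left aside, were read on the same arrays. There were 80 for 38 of the genes, and 38 probe sets of 26 genes passed the filter. Of these 35 were negative, with a median difference of −1.16. The median at the brightest probe set was −1.54 for the same 26 genes, and in a fit of all probe sets 7 of the 38 passed. Of these 7, 4 (of Aspm, Hmmr, Ncapg and Plk4) were under log2 4 on all GFP positive arrays and entered only through the GFP negative group. Of the 33 that did not enter so, 3 passed (of Cdca8, Cenpe and Hmmr), with a median of −0.81 for the 33. Cenpe repeated its fall (5.31 ± 0.21 in GFP positive and 7.19 ± 0.35 in GFP negative cells, −1.87, limma adjusted p = 0.021), with a narrower spread than the probe set used above. Some other probe sets differed less than the one used, such as that of Ncapd2 by 0.00, that of Cenpa by −0.56 and that of Bora by −0.18. Some differed more, such as those of Bub1b (−1.87 against −1.58), Cenpn (−1.97 against −1.55) and Tpx2 (−1.89 against −1.52). Both further probe sets of Pttg1 lay at 0 (−0.04 and 0.06). Zwint had 5, of which 4 were negative, −0.53 to −0.30, and the fifth was 0.22; none passed. Of the probe sets used, 12 carry a suffix for possible cross-hybridisation, among them those of Bub1b, Cenpn, Aurkb, Plk4, Cdca8, Cdc20 and Nek2. Without such probe sets Aurkb and Nek2 were not tested, and Cdca8 did not pass (limma adjusted p = 0.185).

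**Figure D3:**
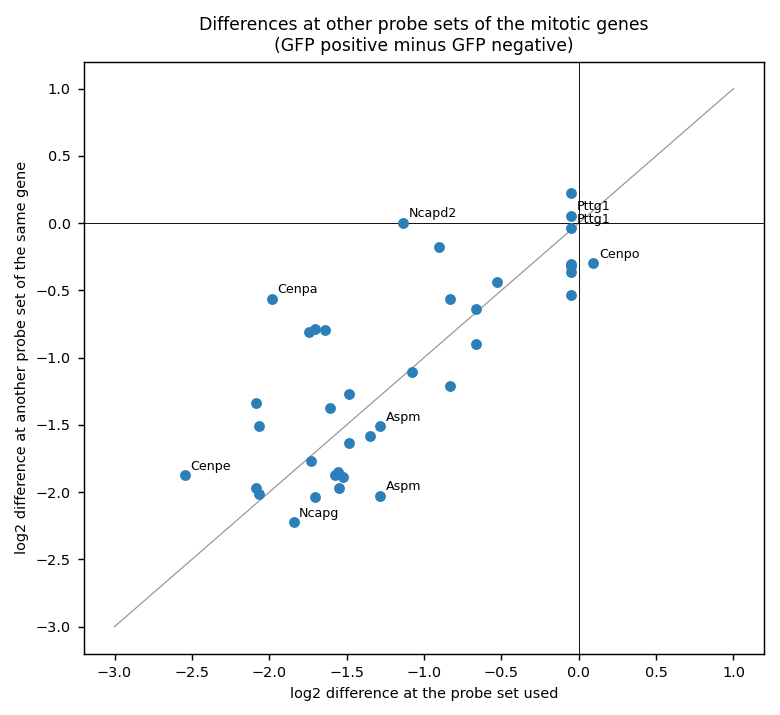
Each point is another probe set of a member above the filter (38 in all); the horizontal axis is the log2 difference, GFP positive minus GFP negative, at the probe set used and the vertical axis that at the other one, with the line of equality. Of the points, 35 lie below 0 on the vertical axis. Points lie on both sides of the line, with Ncapd2 and Cenpa well above it.

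Further genes of the same machinery, which are not among the 57, differed by list. Of 73 tested, 12 fell and 0 rose, with a median of −0.26, against 2.11% falling among all genes. Of 19 tested centromere and kinetochore genes 6 fell, with a median of −0.81. The largest were Kntc1 (−2.08, limma adjusted p = 0.016), like Zwilch a subunit of the RZZ complex, Knl1 (−1.86), the docking platform for Bub1, which was under log2 4 on all GFP positive arrays and entered only through the GFP negative ones, Sgo1 (−1.78), the shugoshin that guards cohesin at centromeres, and Trip13 (−1.47), which disassembles the checkpoint complex. The other 13, Mis12 and Zw10 among them, differed by −1.38 to 0.18. Of 14 tested cohesin and condensin II genes, 0 passed, with a median of −0.03. At an unadjusted p under 0.05, 2 were lower, against 8.28% of all genes. The brightest, Rad21 and Wapl, subunit and release factor of cohesin, differed by 0.11 and −0.01. Chosen after their values were seen, Cdca5 (sororin, −1.46, limma adjusted p = 0.118) and Ncapg2 of condensin II (−1.33, 0.0576) lay lowest. Of 18 genes of the anaphase-promoting complex and its partners, 2 fell, and both are regulators or partners rather than subunits: Ube2c (−1.63, limma adjusted p = 0.0256), its ubiquitin-conjugating enzyme, and Fbxo5 (−1.53, 0.0363), its inhibitor. The other 16 differed by −0.65 to 0.26. Of 22 other spindle and cytokinesis genes 4 fell: Cep55 (−2.10), of the midbody, Ckap2l (−2.04), of the spindle poles, Tacc3 (−1.35), which stabilises spindle microtubules, and Arhgap11a (−1.33). The other 18 differed by −0.78 to 0.77. The highest, Spag5, which binds spindle microtubules and was picked out after its value was seen, read 9.87 ± 0.08 in GFP positive and 9.09 ± 0.16 in GFP negative cells (limma adjusted p = 0.0533; 0.0255 without GFP negative replicate 3). In these lists, as among the members and all genes tested, 0 fell without GFP positive replicate 1 or 3. The kinetochore list then held 8 and 8 genes lower at an unadjusted p under 0.05, against 6.67% and 5.02% of all genes. It had 3 falls without GFP positive replicate 2 and 1 without GFP negative replicate 2, and the anaphase-promoting complex list had 0, 1 and 1 without GFP positive replicate 2, GFP negative replicate 1 and GFP negative replicate 2. The other spindle and cytokinesis list had 2 without GFP positive replicate 2 and 2 without GFP negative replicate 2.

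**Figure D4:**
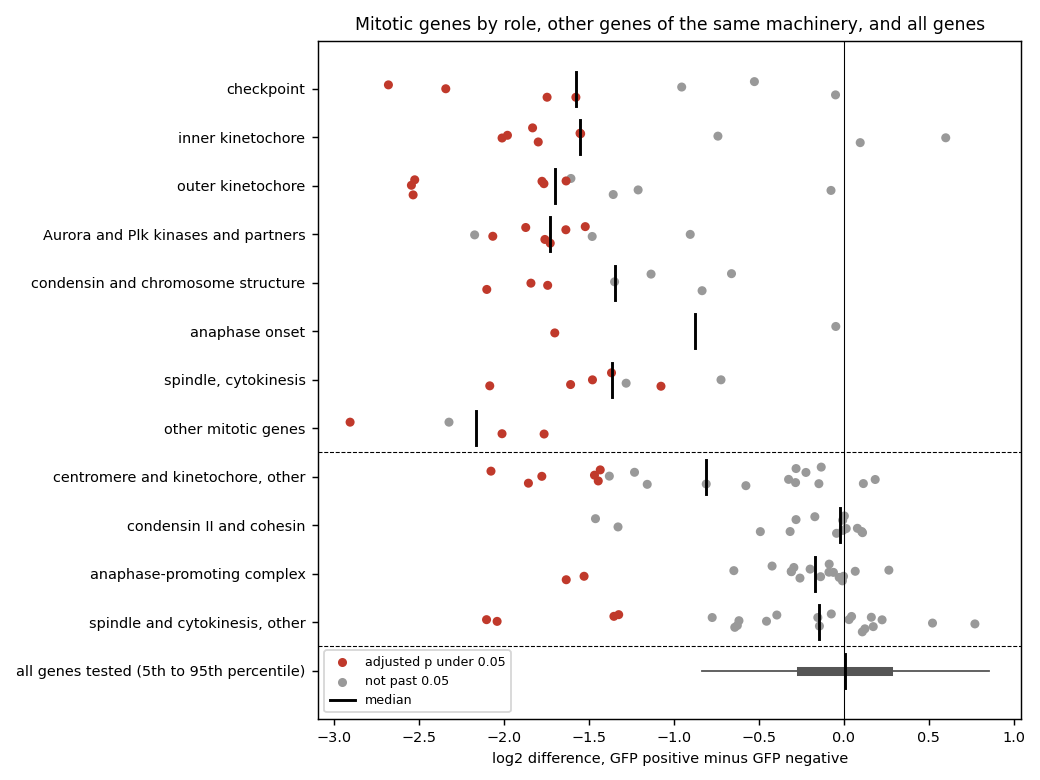
Points are log2 differences, GFP positive minus GFP negative, of tested genes: the 8 role groups of the members on top, 4 lists of other genes of the machinery below, red where the limma adjusted p was under 0.05, with a black bar at the median. The bottom row gives all 10531 genes tested (thin line, the 5th to 95th percentile, −0.84 to 0.85; thick line, the middle quartiles); the member medians lie at −0.88 to −2.17.

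Within the GFP positive group the mitotic genes also differed from array to array more than all genes tested did. Signal was not matched in that comparison. Relative to each gene's mean over the 6 arrays, the median of the 55 was −0.83, −0.50 and −1.16 for GFP positive replicates 1, 2 and 3. It was 0.56, 0.82 and 1.05 for GFP negative replicates 1, 2 and 3. GFP positive replicate 3 held the lowest reading of 40 of the 55 genes, and GFP negative replicate 3 the highest of 29. In GFP positive cells the median SD was 0.37 for the 55 and 0.17 for all genes tested; in GFP negative cells it was 0.33 and 0.36. GFP negative replicate 3, set against the mean of the other 2 arrays of its group, was higher for 39 of the 55 (median 0.32), and 59.6% of all tested genes were higher there (median 0.18). The role medians of this measure ran from 0.02 for the inner kinetochore to 0.90 for the last group described. Genes also differed within a role, from −0.90 to 1.41 in the outer kinetochore. Aurka (1.66), Melk (1.43), Ndc80 (1.41) and Spc24 (1.23) were far above on that array, whereas Ska3 (−0.90), Dsn1 (−0.86), Bora (−0.59), Tpx2 (−0.56) and Ect2 (−0.47) were below. GFP positive replicate 3 was lower than the mean of the other 2 for 46 of the 55 (median −0.45), most of all for Cenpf (−1.30), Cenpe (−1.26) and Bub1 (−1.22); 64.0% of all genes were lower on it (median −0.10).

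**Figure D5:**
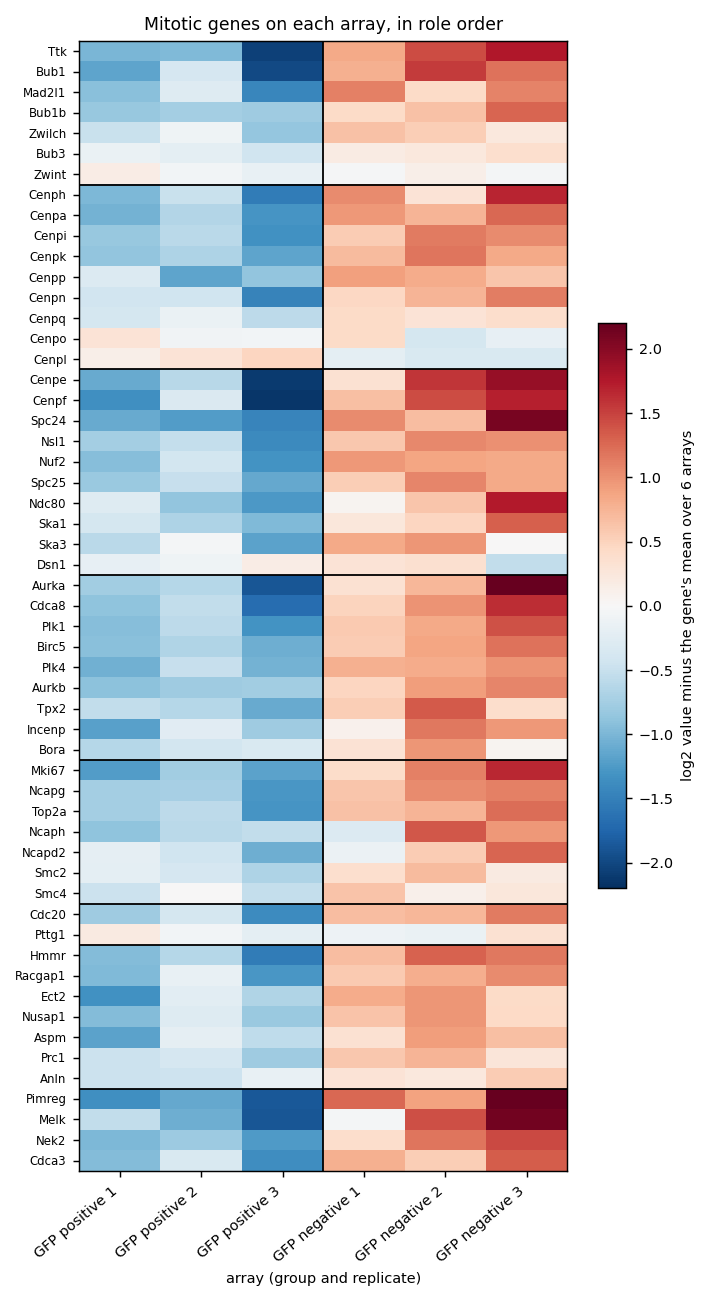
Rows are the 55 tested genes in role order, columns the 6 arrays, GFP positive left; colour is the log2 value minus the gene's mean over all arrays, blue below and red above it. The GFP positive columns are blue for nearly all rows, deepest in replicate 3, and Zwint, Cenpo, Cenpl, Dsn1 and Pttg1 stay pale or run the other way.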

How the data were processed

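Total RNA of 3 GFP positive and 3 GFP negative samples was measured on Affymetrix arrays. The authors deposited log2 values, and GCRMA is the tool that the submitters' processing notes name; its version was not stated there. That method is known to pull dim probe sets to a floor and make the arrays' distributions alike. The 45101 probe sets were used as deposited; 34945 named exactly 1 gene in the platform annotation. The comparison used limma 3.58.1 (lmFit and eBayes with no covariate, R 4.3.3), two-sided. P-values were adjusted by Benjamini-Hochberg over the 10531 genes, at a threshold of 0.05. Each difference is the GFP positive mean less the GFP negative mean. On simulated data for this comparison (10531 genes, 50 changed per size) limma recovered 2%, 30%, 70% and 96% of falls of 0.5, 1, 2 and 3 on the log2 scale, with 6 false calls. The simulation was a single run with normal noise and 1 SD per gene for both groups. In the data the median SD over all genes was 0.17 in GFP positive and 0.36 in GFP negative cells. These rates therefore need not hold for the arrays themselves. The members, their role groups, the other lists and the choice of alternatives were made with earlier results of these data known. Values on every array are given for the 2 largest and the smallest difference of each role; of the other lists, up to 4 genes past the threshold or the 2 brightest; exceptions are named as such. The fit did not pair samples by replicate number, and whether the numbers mark pairs is not known. P-values measure the spread between these arrays.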

Additional observations from a re-analysis of the deposited data

How the results depend on the processing

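The median difference of the 55 tested genes stayed below 0 under every alternative, from −1.79 to −1.36 (−1.79 to −1.51 over the arrays left out). The count of 34 falls was 11 with no filter on dim probe sets (57 tested), 0 with the replicate number as a block and 0 with the covariate of 3′ over 5′ signal. In those fits limma counted 51, 48 and 47 lower at an unadjusted p under 0.05, against 6.26%, 5.93% and 5.35% of all genes. The count of falls was 28 to 37 under the other settings and 0 to 40 over the arrays left out. No member rose, except 1 (Cenpl) with array weights. With no filter the falls by role were 0 for the checkpoint, 3 for the inner and 2 for the outer kinetochore, 3 for the Aurora and Plk group, 1 for condensin and chromosome structure, 0 for anaphase onset, 1 for spindle and cytokinesis and 1 for the last group; of the other lists it left 3 kinetochore genes and 0 of the anaphase-promoting complex. With the block and with the covariate every role and every other list had 0. With array weights condensin and chromosome structure had 5 falls. With all probe sets spindle and cytokinesis had 3 and the anaphase-promoting complex 1. Anaphase onset had 0 without cross-hybridising suffixes, and the last group had 1 with the filter at log2 6, where fewer of its genes were tested. Cohesin and condensin II had 1 fall (Ncapg2) with quantile normalization, with trend and robust settings and with array weights. Spag5 made 1 rise in the other spindle list with no filter, the filter at log2 6, quantile normalization, a common median, or trend and robust settings; array weights gave 2. Over the arrays left out, falls ran from 0 to 5 for the checkpoint, 0 to 6 for the inner and 0 to 8 for the outer kinetochore, 0 to 8 for Aurora and Plk, 0 to 4 for condensin, 0 to 1 for anaphase onset, 0 to 5 for spindle and cytokinesis and 0 to 3 for the last group. In the other lists they ran from 0 to 8 for kinetochore, 0 to 2 for the anaphase-promoting complex and 0 to 4 for spindle, where rises ran from 0 to 2. Over all genes 222 fell and 248 rose. The falls were 101 with no filter, 603 with array weights, 8 with the block, 0 with the covariate and 0 to 443 over the arrays left out. The rises were 1051 with array weights, 19 with the block, 9 with the covariate and 1 to 801 over the arrays left out. The array weights were lowest for GFP negative replicate 3 (0.15) and highest for GFP positive replicate 2 (8.35). The cause of these changes was not tested.

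Among the genes named with values, the sign turned for 6, all near 0 in the reported fit. Zwint was 0.0175 with a common median and 0.0003 with the covariate, and with single arrays left out it lay between −0.144 and 0.0235, as the ranges below do for the others. Cenpo was −0.296 with all probe sets and without cross-hybridising suffixes, −0.0050 with array weights and −0.183 with the covariate, and ran from −0.0724 to 0.333. Dsn1 was 0.0216 with the covariate and ran from −0.363 to 0.082. Pttg1 was 0.0191 with a common median, 0.0555 with all probe sets and 0.0411 with array weights, and ran from −0.159 to 0.104. Rad21 was −0.0922 with all probe sets and without cross-hybridising suffixes, and ran from −0.144 to 0.352. Wapl was 0.0608 with a common median and 0.142 with the covariate, and ran from −0.247 to 0.178. The labels give both groups replicates 1 to 3. Deviations of same-numbered samples from their group means correlated at −0.25, 0.05 and −0.50 across genes, and some differently numbered samples at up to 0.44. Such deviations sum to 0 within each group, so these values depend on each other. They cannot decide whether the numbers pair the samples. In the fit with the replicate block the lowest adjusted p among the 55 was 0.0523. Probe sets under log2 4 limit how far folds can be read.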
